A study of Mus musculus with 5 samples.

Results

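The genes described here encode collagens, laminins and other glycoproteins of the extracellular matrix. They were taken by symbol, as every probe set of the array annotated to a single gene named Col or Lam with a chain number, to a fibulin, fibrillin, nidogen, thrombospondin or tenascin C, or to Fn1, Sparc, Eln, Lox, Postn or Vcan. This gave 78 of the 12488 probe sets and 54 of the 8251 named genes, 31 of them collagens and 9 laminin chains. The rule uses symbols alone, and the genes were proposed with earlier results of these data known.

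The 5 samples were mouse co-cultures, each measured on 1 one-colour oligonucleotide array, so every group had 1 array and no replicate. For 6 days, haematopoietic cells shared each dish with stromal ST2-T cells, and dexamethasone and 1,25-dihydroxyvitaminD3 were present, conditions that form osteoclasts, and the whole dish was harvested for total RNA. The groups were Fos+/+ spleen cells, Fos-/- spleen cells, Fos+/+ bone marrow cells, Fos-/- spleen cells infected with a deltaNFAT virus and Fos-/- spleen cells infected with a GFP (green fluorescent protein) virus. The Fos protein is part of AP-1, a dimeric transcription factor. The Fos genotype is that of the plated haematopoietic cells, while ST2-T cells were common to all groups. The labels give neither the deltaNFAT construct nor the virus doses, the age of the mice or the number of mice behind a dish. Each array mixes RNA of both cell kinds, and fewer cells of a type and less RNA per cell cannot be told apart in it.

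Collagens are trimers of chains that carry repeated glycine triplets. Fibrillar collagens such as types I, III and V give connective tissue and bone their tensile strength, type IV collagen and laminins build the sheet-like basement membrane, and type VI collagen forms beaded filaments around cells. Lysyl oxidase, the product of Lox, cross-links collagen and elastin, and fibronectin, the product of Fn1, links the matrix to integrins on the cell surface. Stromal cells are a main source of these proteins in bone marrow, and osteoclasts degrade collagen when they resorb bone.

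Values are scaled intensities on a linear scale. The noise floor was 19.8, the 40th percentile of all values, and lower values were set to it before a ratio was taken. A gene was called higher or lower at a ratio of 2-fold or more with the brighter array at 39.6 or more, and a fold against an array under the floor is a lower bound, written "at least". A gene with several probe sets is given by the one brightest on average unless another is named. Of the 54 genes, 42 exceeded the floor in at least 1 array, 32 did so in all 5, and 36 reached 39.6 in at least 1 array. The 12 genes under the floor in every array were Col4a3, Col4a4, Col4a5, Col10a1, Col11a2, Col17a1, Col22a1, Lama3, Lamb3, Nid1, Fbn2 and Vcan. Levels of different genes are not set against each other, because each probe set has its own sensitivity.

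**Figure D1:**
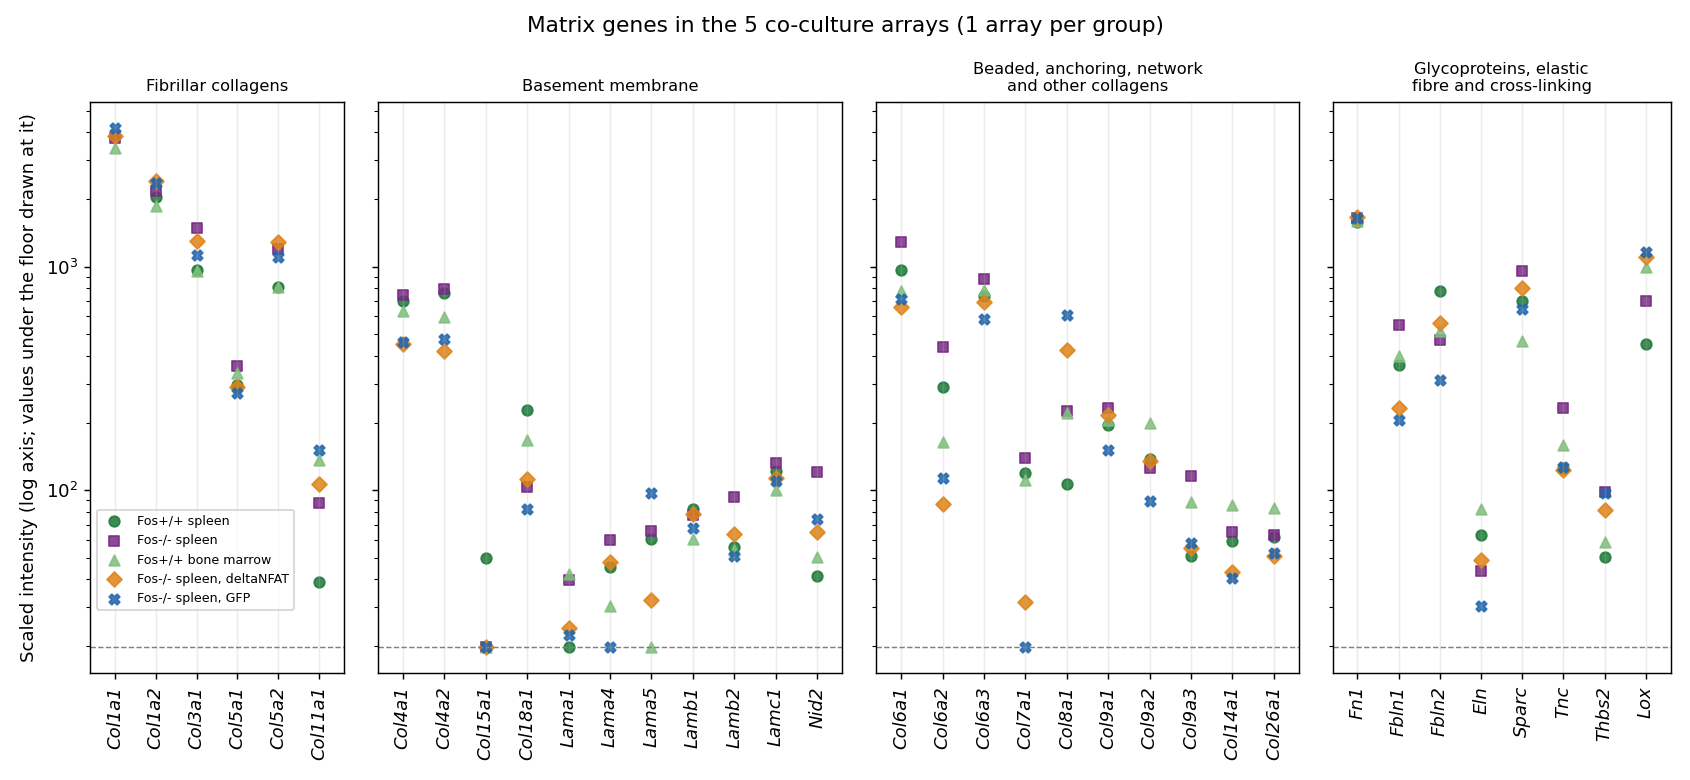
Scaled intensity of 35 matrix genes (x axis, grouped by role) on a log axis, with 1 marker per array and the floor of 19.8 as a dashed line. The arrays of Fn1 and Col1a1 lie nearly on top of each other, those of Col6a2, Col7a1 and Col8a1 are spread over more than 5-fold. Compare heights within a gene only.

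Fos itself, on its brightest probe set, gave 848 and 614 in the Fos+/+ arrays of spleen and bone marrow and 426 to 607 in the Fos-/- arrays. Since the stromal cells have their own Fos and the place of the probes relative to the deletion is not known here, this checks no label. Markers of the cells in the dish were read next. In the stromal and fibroblast list 15 of 18 genes exceeded the floor, and the summed intensity of the list, negative values counted as 0, was 5278 in Fos+/+ spleen, 6200 in Fos-/- spleen, 6354 in Fos+/+ bone marrow, 6239 with deltaNFAT and 6787 with GFP. Thy1, Cdh2 and Lepr were under the floor in all 5 arrays. All 12 macrophage genes exceeded it, with sums of 7238 to 10266. The osteoclast list of 10 genes summed to 14083 and 11053 in the Fos+/+ arrays of spleen and bone marrow. Its Fos-/- sums were 2116 without virus, 3849 with deltaNFAT and 1972 with GFP. The neutrophil list summed to 1371 in Fos+/+ spleen and 9632 in Fos+/+ bone marrow, with 3159 to 6887 in the Fos-/- arrays. Endothelial genes summed to 227 to 504 with Tek under the floor throughout. Of 5 osteoblast genes Alpl, Dmp1 and Pth1r were under it, and 2 exceeded it in every array, among them Ibsp with 168 to 233.

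The chains of the major fibrillar collagens varied little between dishes on their brightest sets. Col1a1 read 3860 in Fos+/+ spleen, 3778 in Fos-/- spleen, 3417 in Fos+/+ bone marrow, 3853 with deltaNFAT and 4185 with GFP, so that the highest array was 1.23-fold over the lowest. Its second set varied more, with 521, 408, 395, 578 and 534, so that both virus arrays were highest. Col1a2, the partner chain of type I collagen, read 2042, 2176, 1877, 2432 and 2366 in the same order, a range of 1.30-fold. On this brightest set both virus arrays were above the other 3 for Col1a2, with a gap of 1.09-fold. The second Col1a2 set, with the letter r, ran the opposite way, with 389, 385, 480, 341 and 311, so that both virus arrays were lowest. Col5a1, a chain of the type V collagen that starts fibrils, read 297, 359, 336, 290.1 and 272, a range of 1.32-fold. Its second set read 78.2, 89.2, 93.4, 97.7 and 75.8, with no common place for the virus arrays.

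On their brightest sets Col3a1 and Col5a2 were lower in both Fos+/+ arrays by a small margin. Col3a1, the chain of type III collagen of soft tissue, read 965 (spleen) and 956 (bone marrow) in the Fos+/+ arrays. The Fos-/- arrays read 1489 without virus, 1309 with deltaNFAT and 1129 with GFP. A second Col3a1 set, with the letter f, overlapped between the labels, with 158 and 155 in the Fos+/+ arrays and 243, 250 and 157 in the Fos-/- arrays. A further set, with no letter, did not overlap, with 84.0 and 96.4 in the Fos+/+ arrays and 146, 175 and 144 in the Fos-/- arrays. Col5a2 read 816 and 815 in the Fos+/+ arrays and 1206, 1287 and 1110 in the Fos-/- arrays. On the brightest sets the lowest Fos-/- array exceeded the highest Fos+/+ array by 1.17-fold for Col3a1 and 1.36-fold for Col5a2. No pair of arrays differed by 2-fold on these brightest sets, and with 1 array per group no error can be put on the gap.

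Fn1 was the steadiest of the 32 genes seen in all arrays. It read 1586 in Fos+/+ spleen, 1646 in Fos-/- spleen, 1601 in Fos+/+ bone marrow, 1674 with deltaNFAT and 1645 with GFP, a range of 1.06-fold. Over those 32 genes the median ratio of the highest to the lowest array was 1.89, and over the 4800 genes of the array above the floor in all 5 it was 1.77. Lamb1 and Lamc1, laminin chains shared by many laminin trimers, ranged over 1.36-fold and 1.32-fold. Lamb1 read 82.7 in Fos+/+ spleen, 77.7 in Fos-/- spleen, 60.6 in Fos+/+ bone marrow, 78.5 with deltaNFAT and 67.6 with GFP. Lamc1 read 122, 132, 100.2, 114 and 109.7 in the same order, on a set with the letter f. The second Lamc1 set, with no letter, lay near or under the floor, with 10.9, 22.6, 16.6, 18.6 and 21.3. A second Lamb1 set, with the letter f, read 75.1, 51.1, 56.5, 54.4 and 56.5.

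Members with larger differences are taken next by comparison. In the plot of cumulative ratios the matrix genes lie to the left of all genes in Fos+/+ over Fos-/- spleen and in GFP virus over no virus. The median log2 ratio of the 42 genes was -0.22 and -0.40 there, against 0.00 and -0.05 for all 6409 genes above the floor. It was 0.05 for deltaNFAT over GFP (0.00 for all genes) and 0.00 for Fos+/+ bone marrow over Fos+/+ spleen (0.05). Fos-/- spleen without virus is the denominator of both ratios with a negative median, so these 2 are not independent of each other. The myofibroblast and smooth muscle list had negative medians in the same 2 comparisons, -0.58 and -0.34. The list's median was also negative for deltaNFAT over GFP, -0.41 where the matrix genes had 0.05. For Fos+/+ bone marrow over Fos+/+ spleen it was 0.13. Of its 9 genes 8 exceeded the floor and Myh11 did not, and it summed to 6392 in Fos+/+ spleen, 9101 in Fos-/- spleen, 6778 in Fos+/+ bone marrow, 6677 with deltaNFAT and 8577 with GFP. Among the marker lists it was not alone in this. B, T and NK cell genes had medians of -0.50 and -1.39 in those 2 comparisons. Osteoblast genes, of which 2 exceeded the floor, had -0.42 and -0.16. No other marker list was negative in both, and the stromal and fibroblast list had -0.12 and 0.00. The part of these cell types in the matrix values was not tested.

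**Figure D2:**
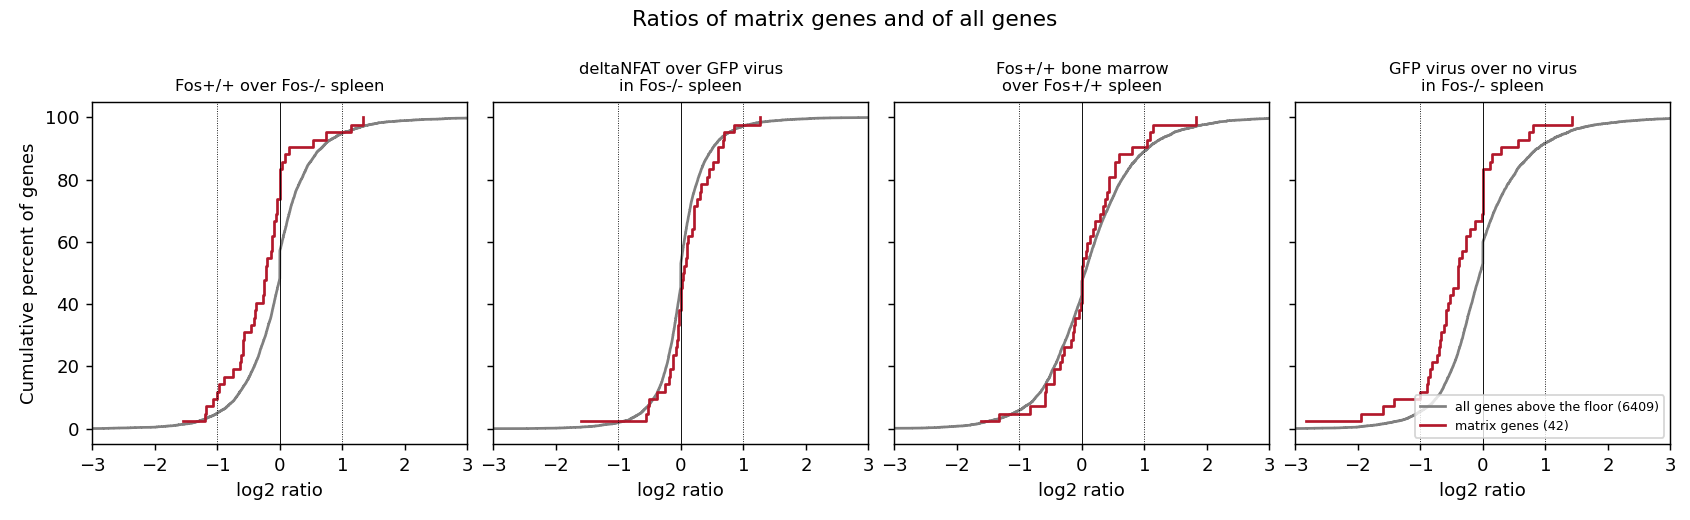
Cumulative percent of genes (y axis) against the log2 ratio (x axis) in 4 comparisons, for the 42 matrix genes above the floor (red) and the 6409 genes of the array above it (grey). Dotted lines mark 2-fold. The red curve lies left of the grey one in the first and the last panel, where the medians were -0.22 and -0.40.

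GFP virus over no virus was the planned comparison with the most lower matrix genes. Of 34 genes bright enough, 5 were at least 2-fold lower (7.06% of all 5113 bright genes were) and 1 was higher (10.3% of all). At 1.5-fold the counts were 15 lower and 3 higher, against 17.2% and 17.5% of all genes. The 5 lower genes were Col6a2, Col7a1, Col9a3, Fbln1 and Lama4, and the higher one was Col8a1. The deltaNFAT array, set against the same uninfected array, had 5 of 34 lower (6.66% of all genes) and 0 higher (11.0%), the lower ones being Col6a2, Col7a1, Col9a3, Fbln1 and Lama5. Neutrophil genes were 4 of 8 higher with GFP than without virus, with a median log2 ratio of 0.92, and their part was not tested.

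Type VI collagen chains were lowest in the virus arrays. Col6a2 read 290 in Fos+/+ spleen, 438 in Fos-/- spleen, 164 in Fos+/+ bone marrow, 87.2 with deltaNFAT and 114 with GFP. It was 3.84-fold lower with GFP and 5.02-fold lower with deltaNFAT than without virus, and the lowest uninfected array was 1.44-fold above the higher virus array. Col6a1 read 964, 1289.5, 775, 659 and 717 in the same order, 1.80-fold lower with GFP than without virus. Its second probe set gave 219, 390, 139, 138 and 139, so there the bone marrow array was level with the virus arrays. Col6a3 read 738, 880, 784, 694 and 582, a smaller difference of 1.51-fold between GFP and no virus. All 3 chains were highest in Fos-/- spleen without virus.

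The promoters of the 2 chains with the larger differences are shown because Fos is an AP-1 subunit and NFAT binds a short core motif. They are RefSeq windows of build GRCm38.p6 from 250 bases before to 50 bases after the gene start, written 5′ to 3′ on the gene's strand, with capitals for AP-1 letters (TGANTCA) or NFAT core letters (GGAAAA) on either strand. Col6a1 lies at chr10:76725995-76726294 (minus strand) and Col6a2 at chr10:76623581-76623880 (minus strand), the latter being 1 of 2 start windows of that gene.
Col6a1: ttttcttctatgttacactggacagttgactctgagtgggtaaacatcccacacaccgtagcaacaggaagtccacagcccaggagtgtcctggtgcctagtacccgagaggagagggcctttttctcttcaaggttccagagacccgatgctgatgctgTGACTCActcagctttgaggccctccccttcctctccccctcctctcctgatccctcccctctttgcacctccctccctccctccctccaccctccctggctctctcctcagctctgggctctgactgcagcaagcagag
Col6a2: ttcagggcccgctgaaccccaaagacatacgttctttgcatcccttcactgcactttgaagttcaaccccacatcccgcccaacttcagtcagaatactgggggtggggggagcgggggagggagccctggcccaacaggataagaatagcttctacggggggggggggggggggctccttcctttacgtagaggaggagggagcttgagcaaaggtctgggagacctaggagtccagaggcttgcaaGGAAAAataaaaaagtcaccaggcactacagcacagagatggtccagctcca
The Col6a1 window holds 1 AP-1 match, 90 bases before the start. Windows were found for 36 of the 54 genes, and Col6a1 was the 1 gene among them with an AP-1 match, against 8.97% of the 27025 genes with a window. NFAT core letters stood in 13 of the 36 genes, against 26.1% of all, and a TATA box (TATAAA on either strand) in 8 of 36, against 15.7%. A match describes letters and does not show binding.

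The type IV collagen chains read in parallel over the arrays. Col4a1 read 704 in Fos+/+ spleen, 748 in Fos-/- spleen, 635 in Fos+/+ bone marrow, 452 with deltaNFAT and 461 with GFP. Col4a2 read 763, 791, 599, 421 and 474. As a percent of Fos-/- spleen without virus, the deltaNFAT and GFP arrays stood at 60.3 and 61.6 for Col4a1 and at 53.2 and 59.9 for Col4a2. Neither chain reached 2-fold, and every uninfected array was above both virus arrays by at least 1.38-fold for Col4a1 and 1.26-fold for Col4a2.

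The windows of this chain pair are shown because they overlap. Their starts lie 21 bases apart on opposite strands of chromosome 8, Col4a1 with the window chr8:11312777-11313076 (minus strand) and Col4a2 with chr8:11312555-11312854 (plus strand), both in GRCm38.p6. Capitals mark the 78 bases that both windows share, each read on its own strand.
Col4a1: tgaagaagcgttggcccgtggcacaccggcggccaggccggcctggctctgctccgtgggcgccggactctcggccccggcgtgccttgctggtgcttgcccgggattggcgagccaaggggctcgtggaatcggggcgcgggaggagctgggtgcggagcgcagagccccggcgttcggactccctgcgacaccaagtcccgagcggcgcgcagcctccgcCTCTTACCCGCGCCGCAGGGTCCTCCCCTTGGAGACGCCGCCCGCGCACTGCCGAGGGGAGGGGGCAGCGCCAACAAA
Col4a2: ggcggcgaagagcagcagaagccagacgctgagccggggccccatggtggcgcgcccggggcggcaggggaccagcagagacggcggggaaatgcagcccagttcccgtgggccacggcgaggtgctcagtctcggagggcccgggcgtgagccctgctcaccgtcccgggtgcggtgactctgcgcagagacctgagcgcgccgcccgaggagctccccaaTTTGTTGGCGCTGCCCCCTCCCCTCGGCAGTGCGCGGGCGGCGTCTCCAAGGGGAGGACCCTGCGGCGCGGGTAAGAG
Neither window held AP-1, NFAT core or TATA box letters.

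Col7a1, whose product forms the anchoring fibrils under epithelia, had the largest fold among the lower genes. It read 120 in Fos+/+ spleen, 140 in Fos-/- spleen, 111 in Fos+/+ bone marrow, 31.5 with deltaNFAT and 17.3, under the floor, with GFP. It was at least 7.07-fold lower with GFP and 4.44-fold lower with deltaNFAT than without virus. The 3 uninfected arrays lay close together and 3.51-fold above the virus arrays at the nearest. Col7a1, Col6a2 and Col8a1 kept their calls for GFP over no virus under all 5 alternative settings. Fbln1, Lama4 and Col9a3 lost theirs in the mean of all probe sets, Fbln1 also with unsuffixed probe sets, Lama4 and Col9a3 also at the 60th percentile floor, and Col9a3 also with quantile normalization.

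Fbln1, which encodes the elastic fibre and basement membrane protein fibulin-1, differed between its probe sets. The brightest, with the letter g in its identifier, read 365 in Fos+/+ spleen, 551 in Fos-/- spleen, 398 in Fos+/+ bone marrow, 233 with deltaNFAT and 207 with GFP, and was 2.67-fold lower with GFP than without virus. The next one, with no letter, read 251, 138, 268, 190 and 158, with a log2 ratio of 0.20 for GFP over no virus and 0.87 for Fos+/+ over Fos-/- spleen. A further set with no letter was dim, at 27.0, 33.7, 9.4, -4.9 and -7.4, and went the way of the brightest. It was at least 1.70-fold lower with GFP than without virus and 1.25-fold lower in Fos+/+ than in Fos-/- spleen. The direction of Fbln1 thus depends on the probe set, and the letter of the brightest marks a set that can share sequence with similar transcripts.

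The remaining calls against the uninfected array rest on dim values. Col9a3, a chain of cartilage type IX collagen, read 50.8 in Fos+/+ spleen, 116 in Fos-/- spleen, 88.9 in Fos+/+ bone marrow, 55.4 with deltaNFAT and 58.0 with GFP, and its difference between no virus and GFP lay just at the 2-fold limit. Lama4, a laminin chain of vessel walls and mesenchyme, read 45.3, 59.6, 30.3, 47.7 and 15.2 in the same order. Lama5 read 60.5, 65.7, 5.5, 32.2 and 97.0. The Lama4 value with GFP and the Lama5 value in bone marrow are under the floor. A second Lama4 set was under the floor in all 5 arrays. Tnc, the anti-adhesive glycoprotein tenascin C, read 126 in Fos+/+ spleen, 234 in Fos-/- spleen, 159 in Fos+/+ bone marrow, 124 with deltaNFAT and 127 with GFP. Tnc was 1.85-fold lower with GFP than without virus, and its second probe set was 3.18-fold lower.

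Grouped by virus, the matrix genes split unevenly. In 11 of 36 genes both virus arrays were below all 3 uninfected arrays (21.1% of all 5567 bright genes), and in 3 both were above (14.0%). The 11 were Col4a1, Col4a2, Col5a1, Col6a1, Col6a2, Col6a3, Col7a1, Col14a1, Col26a1, Fbln1 and Lama2, and the 3 were Col1a2, Col8a1 and Lox. These counts use the brightest set of a gene, and for Col1a2 the second set ran the opposite way. Second sets of Col5a1, Col6a1 and Fbln1 overlapped between the groups. The second set of Tnc was lower and that of Col1a1 higher in both virus arrays, while their brightest sets overlapped. The gap was under 1.1-fold for Col1a2, Col5a1, Col6a1 and Col6a3. Both infected dishes held Fos-/- spleen cells, and of the uninfected ones only the Fos-/- spleen dish matched them in genotype and tissue. With 1 array per group, virus cannot be told apart from other differences between dishes. The summed B, T and NK cell list also read lower in the virus arrays, 277 and 282 against 331 to 559, and Cd3e, Cd3d, Cd3g and Cd8a were under the floor throughout. The stromal list summed to 6239 and 6787 in the virus arrays and 5278 to 6354 in the uninfected ones. For the myofibroblast and smooth muscle list the sums were 6677 and 8577 against 6392 to 9101. The part of any of these cell types in the matrix differences was not tested.

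**Figure D3:**
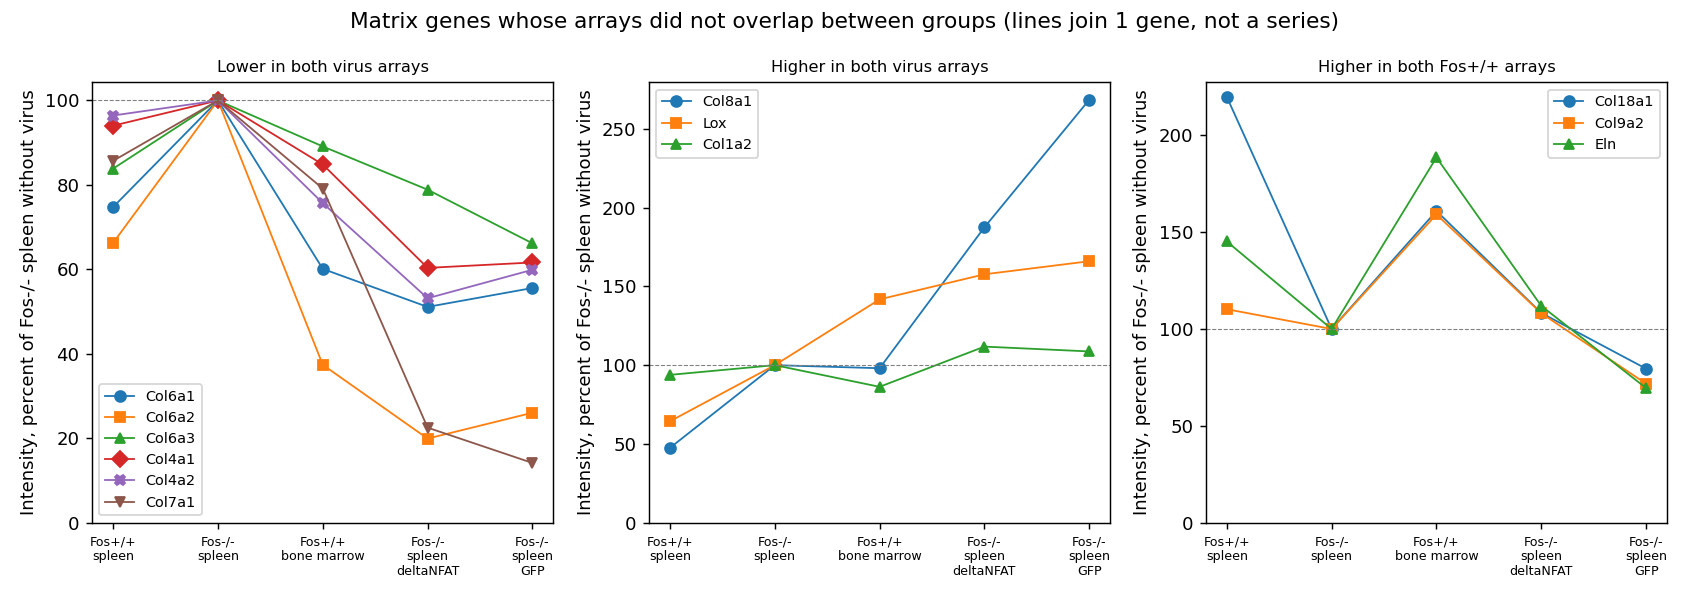
Intensity as a percent of Fos-/- spleen without virus (y axis, from 0) in the 5 arrays (x axis) for matrix genes whose groups did not overlap on the brightest probe set, with lines joining the values of 1 gene. Col6a2 stands at 19.9% and 26.0% in the deltaNFAT and GFP arrays, Col7a1 at 22.5% and at most 14.2%, Col8a1 reads 188% and 268% there, and Col18a1 reads 220% and 161% in the Fos+/+ arrays.

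Col8a1 and Lox ran the other way. Col8a1, a short-chain network collagen of vessel walls, read 107 in Fos+/+ spleen, 226 in Fos-/- spleen, 221 in Fos+/+ bone marrow, 423 with deltaNFAT and 605 with GFP. It was 2.68-fold higher with GFP and 1.87-fold higher with deltaNFAT than without virus. Lox read 451 in Fos+/+ spleen, 701 in Fos-/- spleen, 994 in Fos+/+ bone marrow, 1105 with deltaNFAT and 1164 with GFP. Both virus arrays exceeded the highest uninfected array, by at least 1.11-fold for Lox and 1.87-fold for Col8a1. The second Lox probe set kept this order apart from the virus arrays, with 275, 349, 417, 547 and 511.

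Between spleen co-cultures without virus, 2 of 35 bright matrix genes reached 2-fold upward in Fos+/+ (6.48% of all 4997 bright genes) and 4 were lower (6.42%). Of the 42 genes above the floor 73.8% had a negative log2 ratio and 16.7% a positive one, against 48.3% and 42.9% of all genes above it. At 1.5-fold 11 of 35 were lower and 3 higher, against 15.4% and 13.2% of all genes. The 4 lower genes were Col8a1, Col11a1, Col9a3 and Nid2, and the higher ones Col18a1 and Col15a1. Col8a1 and Col18a1 kept their calls under every alternative setting, while the other 4 lost theirs at the 60th percentile floor, Col9a3 also in the mean of all probe sets.

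Col8a1 was 2.11-fold lower in Fos+/+ spleen. Col11a1, a minor fibrillar collagen of cartilage that sets fibril width, read 38.9 in Fos+/+ spleen, 87.7 in Fos-/- spleen, 137 in Fos+/+ bone marrow, 107 with deltaNFAT and 152 with GFP, and was 2.25-fold lower in Fos+/+ than in Fos-/- spleen. Nid2, a nidogen that bridges laminin and type IV collagen, read 41.2, 120, 50.2, 65.0 and 74.4 and was 2.92-fold lower. The Fos-/- spleen array stood above the others for Nid2, and both Fos+/+ arrays were under all 3 Fos-/- arrays by 1.29-fold. Lama1, a laminin chain of early basement membranes, read 5.5 in Fos+/+ spleen, 39.5 in Fos-/- spleen, 42.0 in Fos+/+ bone marrow, 24.1 with deltaNFAT and 22.5 with GFP. It was not called here because 39.5 is short of the 39.6 limit on brightness. Thbs2, which encodes the anti-angiogenic thrombospondin-2, read 50.4 and 58.5 in the Fos+/+ arrays and 98.5, 81.4 and 97.3 in the Fos-/- arrays.

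Col18a1 read highest in both Fos+/+ co-cultures on 3 probe sets. It encodes a basement membrane collagen whose end fragment is endostatin. On the brightest set the Fos+/+ arrays gave 228 (spleen) and 167 (bone marrow), and the Fos-/- arrays 104 without virus, 112 with deltaNFAT and 82.6 with GFP. The spleen arrays differed by 2.20-fold in favour of Fos+/+, with the bone marrow array between them. Its probe set with the letter g read 253 and 188 in the Fos+/+ arrays, 66.5 with deltaNFAT, and 0.2 and -8.4 in Fos-/- spleen without virus and with GFP.

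By the set with the letter g, Fos+/+ spleen exceeded Fos-/- spleen at least 12.8-fold, and deltaNFAT exceeded GFP at least 3.36-fold. On the brightest set these folds were 2.20 and 1.36. As for Fbln1, the letter g marks a set that can share sequence with similar transcripts. A set with the letter f gave 39.6 and 34.3 in the Fos+/+ arrays, 20.2 with deltaNFAT and values under the floor in the other 2. The remaining 2 probe sets, with no letter and with the letter s, were under the floor in all arrays. The set with no letter was annotated to the same source sequence as the set with the letter g. In the order Fos+/+ spleen, Fos-/- spleen, Fos+/+ bone marrow, deltaNFAT and GFP, the osteoclast list summed to 14083, 2116, 11053, 3849 and 1972. The stromal list summed to 5278, 6200, 6354, 6239 and 6787, and endothelial genes to 237, 312, 504, 227 and 298. The part of these cell types in the Col18a1 values was not tested. RefSeq gives 2 start windows for the gene, and neither held AP-1 or NFAT core letters.

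**Figure D4:**
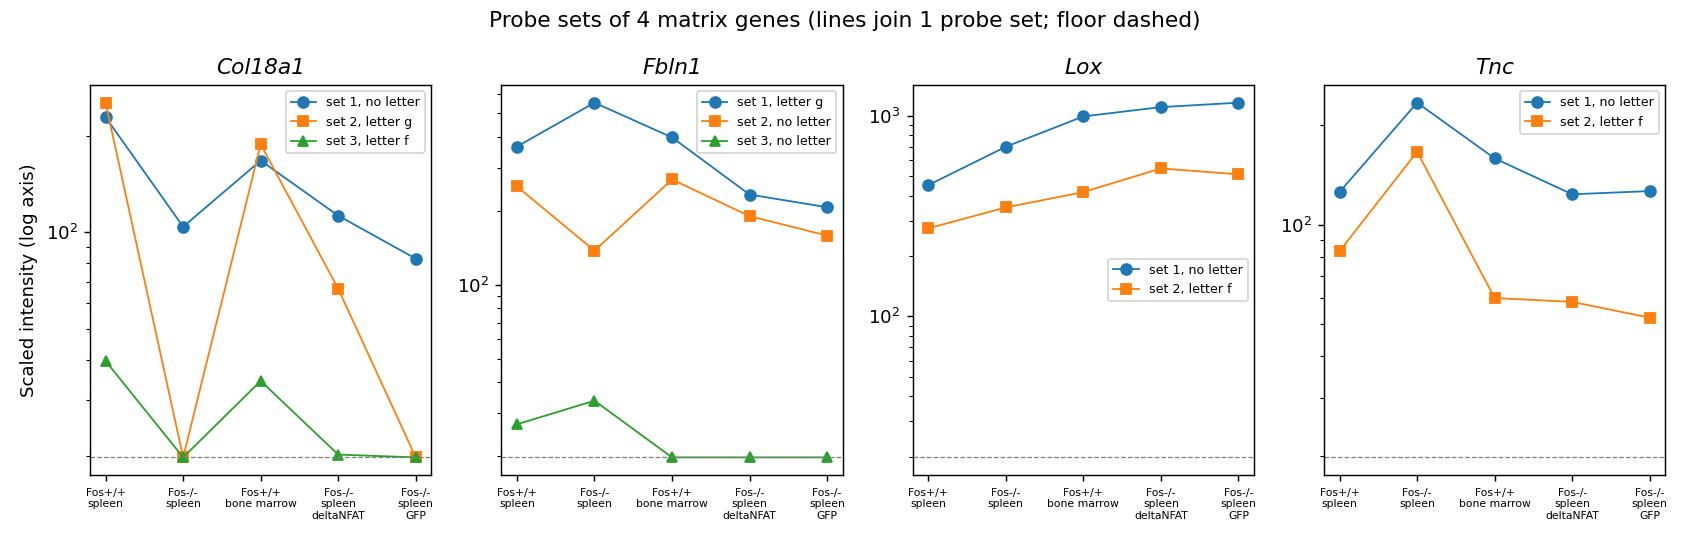
Scaled intensity (log axis) of each probe set above the floor in at least 1 array for Col18a1, Fbln1, Lox and Tnc in the 5 arrays (x axis), with lines joining 1 probe set and the floor of 19.8 dashed. The 3 Col18a1 probe sets are all highest in Fos+/+ spleen, while set 1 and set 2 of Fbln1 go opposite ways between the Fos+/+ and Fos-/- spleen arrays.

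Col15a1, a collagen close in structure to Col18a1, read 49.6 in Fos+/+ spleen, at least 2.51-fold above Fos-/- spleen, and lay under the floor in every other array. Fbln2, a fibulin of elastic fibres, read 778 in Fos+/+ spleen, 469 in Fos-/- spleen, 516 in Fos+/+ bone marrow, 562 with deltaNFAT and 311 with GFP. Its deltaNFAT array was thus above the Fos+/+ bone marrow array, and no pair compared here reached 2-fold. Eln, the gene for elastin, read 63.3 and 82.2 in the Fos+/+ arrays and 43.6, 48.8 and 30.3 in the Fos-/- arrays, a gap of 1.30-fold.

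Over both Fos+/+ and all 3 Fos-/- arrays, 3 of 36 matrix genes were higher without overlap (15.1% of all 5567 genes) and 7 lower (10.0%). The higher ones were Col18a1, Col9a2 and Eln, and the lower ones Col1a2, Col3a1, Col5a2, Col8a1, Fn1, Nid2 and Thbs2. The second set of Col1a2 ran the opposite way. A second set of Col3a1, with the letter f, overlapped, while a further one was lower in both Fos+/+ arrays without overlap. The second set of Fbln1 was higher in both Fos+/+ arrays, 251 and 268 against at most 190 in the Fos-/- arrays, while its brightest set overlapped. For Fn1, Col8a1 and Col9a2 the gap was 1.03-fold or less, and the widest were 1.49-fold for Col18a1 and 1.39-fold for Thbs2. The Fos-/- arrays include both virus arrays.

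Between the deltaNFAT and GFP virus arrays the shares of matrix genes past 2-fold were near those of all genes, which is no result about the matrix genes. Of 32 bright enough, 1 was higher (3.54% of all 5032 bright genes) and 1 lower (2.58%) with deltaNFAT. The higher one was Lama4, at least 2.41-fold, and the lower one Lama5, 3.01-fold, both at intensities under 100. The other Lama4 set was under the floor throughout, and the second Lama5 set was 1.82-fold lower with deltaNFAT. Both calls were lost at the 60th percentile floor, and that of Lama4 also in the mean of all probe sets. At 1.5-fold 4 genes were higher (8.45% of all) and 1 lower (6.42%), the higher ones including Fbln2 at 1.81-fold and Col9a2 at 1.51-fold. Col1a1, Col1a2, Fn1, Col4a1 and Col6a1 differed by less than 1.1-fold between the 2 virus arrays. Col8a1 read 1.43-fold lower with deltaNFAT.

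Between Fos+/+ cells of bone marrow and spleen, 4 of 36 bright matrix genes were higher in the bone marrow co-culture (13.2% of all 5291 bright genes) and 2 were lower (7.18%). These shares of matrix genes, 11.1% and 5.56%, were near those of all genes, which is no result about the matrix genes as a set. Col11a1 was 3.52-fold, Lox 2.20-fold, Col8a1 2.06-fold and Lama1 at least 2.12-fold higher. Each of these 4 genes had its lowest array in Fos+/+ spleen. Col11a1 kept its call under all 5 alternative settings. The call of Lox was lost in the mean of all probe sets, that of Col8a1 with quantile normalization, and that of Lama1 with quantile normalization and at the 60th percentile floor. At 1.5-fold 6 genes were higher and 5 lower, against 23.3% and 16.0% of all genes. Lama5 was at least 3.06-fold and Col15a1 at least 2.51-fold lower, and both calls were lost at the 60th percentile floor. Sparc, the collagen-binding glycoprotein osteonectin, read 702 in Fos+/+ spleen, 961 in Fos-/- spleen, 467 in Fos+/+ bone marrow, 800 with deltaNFAT and 650 with GFP, lowest in the bone marrow array without reaching 2-fold against Fos+/+ spleen. Fos+/+ spleen is shared with the genotype comparison, so its values of Col8a1 and Col11a1 enter both. Neutrophil genes were 8 of 8 higher in the bone marrow array, with a median log2 ratio of 2.78. Adipocyte genes were 4 of 5 higher (median 1.08), stromal and fibroblast genes 4 of 14 (median 0.38) and endothelial genes 2 of 5 (median 0.71). The part of these cell types in the values of single matrix genes was not tested.

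The other members had no 2-fold call in the 4 planned comparisons. Col9a1 and Col9a2, the partner chains of Col9a3, read 196, 234, 207, 218 and 152 and 138, 125, 199, 135.5 and 89.9, in the order Fos+/+ spleen, Fos-/- spleen, Fos+/+ bone marrow, deltaNFAT and GFP. Col9a2 thus ranged over 2.22-fold, highest in bone marrow and lowest with GFP. Col14a1, a collagen on the surface of fibrils, read 59.2, 65.1, 85.9, 43.3 and 40.7. Col26a1 read 61.5, 63.3, 83.3, 50.7 and 52.4, and like Col14a1 was highest in bone marrow. The laminin chain Lamb2 read 55.9, 93.7, 54.1, 63.7 and 51.0, highest in Fos-/- spleen. Lama2, the laminin chain of muscle basement membrane, read 38.2 to 68.7. Col12a1 stayed between 21.7 and 37.4, and Col2a1, Col13a1, Col19a1, Postn and Thbs3 exceeded the floor in 1 or 2 arrays with at most 32.1.

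Genes that make, modify or bind the matrix gave the following counts. Of 15 bright genes of collagen synthesis and processing, 0 passed 2-fold in Fos+/+ over Fos-/- spleen or in deltaNFAT over GFP, 1 was lower in GFP over no virus, and 1 was higher and 2 lower in bone marrow over spleen. The hydroxylase subunit P4hb was 2.57-fold lower in bone marrow and P3h4 2.35-fold lower with GFP than without virus, while Mia3, which helps load collagen into transport vesicles, was 2.39-fold higher in bone marrow. The list's median log2 ratio was -0.19 for Fos+/+ over Fos-/- spleen, 0.10 for deltaNFAT over GFP, -0.39 for bone marrow over spleen and -0.44 for GFP over no virus, where the matrix genes had -0.22, 0.05, 0.00 and -0.40. Of the 2 other cross-linking genes on the array 1 was higher in Fos+/+ over Fos-/- spleen and 1 lower in deltaNFAT over GFP. The latter, Loxl1, a lysyl oxidase relative needed for elastic fibres, read 183 with deltaNFAT and 381 with GFP, 2.09-fold lower.

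Among other matrix-associated glycoproteins 14 of 22 exceeded the floor. Smoc1, which encodes a Sparc-related protein, read 103 in Fos-/- spleen and 89.8 with GFP and lay under the floor in the other 3. Its fold was at least 5.22 for Fos-/- over Fos+/+ spleen and at least 4.54 for GFP over deltaNFAT. Hspg2, the basement membrane proteoglycan perlecan, read 135 in Fos+/+ spleen, 86.1 in Fos-/- spleen and 69.2 with deltaNFAT, and was under the floor in Fos+/+ bone marrow and with GFP. These were the only calls of that list, 1 lower in the genotype comparison, 1 higher and 1 lower for deltaNFAT over GFP, and 1 lower in each of the other 2.

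In the CCN and TGF-beta list 2 of 12 were higher and 1 lower in Fos+/+ over Fos-/- spleen. The TGF-beta receptors Tgfbr3, at least 5.70-fold, and Tgfbr1, at least 3.42-fold, were the higher ones, and the co-receptor Eng was 2.01-fold lower. For deltaNFAT over GFP 1 of 11 was higher and 1 lower, and for GFP over no virus 1 of 10 each way, where Ccn4 was 2.39-fold lower. None of 12 passed in bone marrow over spleen.

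Matrix receptors included the fibronectin receptor chain Itga5, which read 164 in Fos+/+ spleen, 91.7 in Fos-/- spleen, 51.2 in Fos+/+ bone marrow, 0.8 with deltaNFAT and -11.4 with GFP. Both virus arrays were thus under the floor for Itga5, at least 4.63-fold under Fos-/- spleen for GFP. In Fos+/+ over Fos-/- spleen 2 of 13 receptors were higher and 0 lower, namely the hyaluronan receptor Cd44, at least 4.82-fold, and the integrin chain Itgav, 2.57-fold. In bone marrow over spleen 1 of 15 was higher and 3 lower, with Itgb5 2.74-fold, Sdc1 2.80-fold and Itga5 3.19-fold lower. For deltaNFAT over GFP 0 of 13 passed either way, and for GFP over no virus 1 was higher and 1 lower.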

How the data were processed

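Linear intensities, a single value for each probe set of an array, were deposited by the authors. The software that made them is not given in the sources. In the deposited values all arrays had a trimmed mean (2% off each end) of 100.1, and 20.3 to 22.4% of values were 0 or negative. The equal means point to a scaling and the negative values to a subtraction, whose kind is not known here. Arrays were rescaled to an equal trimmed mean, floored at the 40th percentile and taken to log2 with Python 3.11.15, numpy 2.4.6 and pandas 2.3.3. Between 58.3 and 62.3% of probe sets exceeded the floor. Symbols came from the platform annotation (10855 probe sets with 1 symbol, 396 with several, 1237 with none), and 66 control probe sets stayed out. All columns matched a sample label. With 1 array per group no test was run and no error can be given, and the number of arrays limits the precision. The members and lists were chosen with earlier results of these data known. Every member is accounted for; values in all arrays were given for genes at 79.2 or more or with a 2-fold call, and up to 4 genes per list with a call at that brightness. The groupings by virus and by Fos label and the ratio of deltaNFAT over no virus were added after the values were seen. Other probe sets of a gene, the range and gap values and the unsuffixed checks describe members after their values were seen. The procedure was tested on simulated data. Promoter windows came from RefSeq.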

Additional observations from a re-analysis of the deposited data

How the results depend on the processing

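No paired analysis was possible because each group had 1 array, and no replicate could be left out. With the values as deposited no count of matrix genes moved. With quantile normalization 2 genes in place of 4 were higher in bone marrow over spleen, Col8a1 and Lama1 falling under the limit. At the 60th percentile floor of 65.1, fewer genes are bright enough to pass. The counts there were 1 higher and 1 lower for Fos+/+ over Fos-/- spleen, 0 higher and 0 lower for deltaNFAT over GFP, 0 lower for bone marrow over spleen and 3 lower for GFP over no virus. In the mean of all probe sets 0 genes were higher for deltaNFAT over GFP. At 1.5-fold the counts were 11 lower for Fos+/+ over Fos-/- spleen, 4 higher for deltaNFAT over GFP, 5 lower for bone marrow over spleen, and 3 higher and 15 lower for GFP over no virus. The 4 median log2 ratios each moved by less than 0.1 under every alternative run, and the counts of genes without overlap stayed within 1.5 times. Fbln1 in GFP over no virus turned from a log2 ratio of -1.41 to 0.20 with unsuffixed probe sets, since another probe set then stands for it. Of the calls, 2 of 6 for Fos+/+ over Fos-/- spleen, 0 of 2 for deltaNFAT over GFP, 1 of 6 for bone marrow over spleen and 3 of 6 for GFP over no virus were kept under all alternative settings run for single genes.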
